A study of Arabidopsis thaliana with 24 samples.

Results

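The genotype by ABA interaction of uncapped and cleaved RNA was examined in the 8 GMUCT libraries of a 24-library series of Arabidopsis thaliana. GMUCT sequences RNA that carries a free 5' phosphate, so it counts transcripts that have lost their cap or have been cut. The 4 groups were Col-0 (genotype label wildtype) and dxo1, each under the normal condition (NT, without added hormone) and under ABA, with 2 labelled replicates per group. All plants were grown on 1/2 MS with long days and harvested as seedlings of 12 days, the dose and duration of ABA are not given in the labels, and neither is the dxo1 lesion. The interaction of a gene is its ABA change in dxo1 minus its ABA change in Col-0, on the log2 scale, and every one of the 28775 genes in the count files was considered. Of these, 19644 genes passed the filter on low counts and were tested.

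ABA is the hormone of drought and seed maturation. It binds PYR/PYL receptors, which then hold back the clade A protein phosphatases, and the kinases released by this switch on ABF transcription factors at promoters with an ACGTG core. DXO1 belongs to the DXO family of decapping enzymes and removes the NAD cap that some plant RNAs carry in place of the usual methylguanosine cap. A GMUCT level depends both on how much RNA of a gene is present and on how much of it is uncapped or cut, and in whole seedlings fewer cells of a type and less RNA per cell cannot be told apart.

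The genes with an interaction (adjusted p under 0.05) were sorted by their separate ABA calls in both genotypes. A response was blunted when ABA changed the gene in Col-0 and the change in dxo1 was smaller, or did not pass the test whichever its sign. It was reversed when ABA moved the gene past the threshold in opposite directions, and dxo1-only when it passed in dxo1 but not in Col-0. An amplified response passed in Col-0 and was larger in the same direction in dxo1. A missing call does not show that a gene was unchanged.

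The promoters below belong to the gene with the smallest interaction p of each main kind, ICL for blunted rises, BT5 for blunted falls, DIC2 for reversed responses and AT5G52050 (DTX50) for dxo1-only rises, and are shown for the motifs compared further on. They cover the 250 bases before the annotated gene start in TAIR10.1 RefSeq, 5' to 3' on the strand of the gene. Capitals mark ACGTG (the core of ABA-response elements) and TTGAC (the core of the W box, which WRKY factors bind), on either strand.
ICL, chr3:7656054-7656303, minus strand: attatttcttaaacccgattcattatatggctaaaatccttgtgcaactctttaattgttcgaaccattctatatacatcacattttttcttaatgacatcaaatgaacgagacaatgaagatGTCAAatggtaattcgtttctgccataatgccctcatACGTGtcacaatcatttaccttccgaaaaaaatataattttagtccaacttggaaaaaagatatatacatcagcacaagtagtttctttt
BT5, chr4:17672354-17672603, minus strand: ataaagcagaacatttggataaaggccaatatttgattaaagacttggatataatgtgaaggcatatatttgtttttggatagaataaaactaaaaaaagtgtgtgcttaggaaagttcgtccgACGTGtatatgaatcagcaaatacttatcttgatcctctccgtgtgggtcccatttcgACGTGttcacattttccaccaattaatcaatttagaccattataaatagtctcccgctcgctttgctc
DIC2, chr4:12686209-12686458, plus strand: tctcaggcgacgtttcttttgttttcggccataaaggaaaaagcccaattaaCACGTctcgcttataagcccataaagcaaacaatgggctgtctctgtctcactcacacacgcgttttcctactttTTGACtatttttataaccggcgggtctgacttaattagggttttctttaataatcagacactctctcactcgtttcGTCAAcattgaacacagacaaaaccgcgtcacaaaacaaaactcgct
AT5G52050, chr5:21138453-21138702, plus strand: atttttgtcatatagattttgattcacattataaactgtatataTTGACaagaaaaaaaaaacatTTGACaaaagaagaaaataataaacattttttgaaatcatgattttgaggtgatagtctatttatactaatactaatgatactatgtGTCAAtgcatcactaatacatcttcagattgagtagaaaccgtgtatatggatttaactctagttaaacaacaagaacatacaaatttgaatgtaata

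The libraries held 5793714 to 13940464 counts on genes, with 9280864 or more without hormone and 9782727 or fewer with ABA. The log2 levels of labelled replicates correlated at r = 0.979 to 0.992 within groups. Their counts differed beyond counting error by more in dxo1. Chi-square over degrees of freedom was 15.95 in untreated and 13.29 in ABA-treated dxo1, against 3.59 and 4.81 in Col-0. This ratio also depends on depth. The label for the tissue reads bud, but floral organ genes were close to 0: 2 of 8 floral markers reached 10 counts in any library, and the summed level of all 8 lay between 1.13 and 6.91 CPM (counts scaled to a common library size), against 25413 to 44863 CPM for 21 light-harvesting and RBCS genes. DXO1 (AT4G17620) itself stood at 30.3 and 25.5 CPM in untreated Col-0, 30.6 and 32.3 with ABA, 21.5 and 18.1 in untreated dxo1 and 18.9 and 15.7 with ABA. DXO1 reads were thus lower but present in the dxo1 libraries, and its interaction was -0.37 ± 0.25 (edgeR adjusted p = 0.412).

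ABA changed fewer genes in dxo1 than in Col-0. Most genes with an interaction responded in Col-0 and had a dxo1 change that was smaller or did not pass the test, often of the opposite sign. In Col-0, ABA raised 2745 genes (14% of genes tested) and lowered 2505 (12.8%), and in dxo1 it raised 1012 (5.15%) and lowered 497 (2.53%), so that 26.7% and 7.68% of genes changed. The interaction passed the test for 1753 genes (8.92%), of which 836 (4.26%) had a more positive and 917 (4.67%) a more negative ABA change in dxo1. With library size alone in place of TMM scaling, the split turned to 1188 more positive and 720 more negative, and the median interaction of all genes was 0.11 in place of -0.0012. The count of 1753 fell to 832 without untreated Col-0 replicate 1 and to 813 without replicate 2. The p-values measure the spread between labelled replicates, which may be technical. A single spread per gene was fitted over both genotypes, although replicate counts differed more in dxo1. The counts of calls in Col-0 and dxo1 rest on that shared spread.

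Of the 1753 genes, 1444 (82.4%) were blunted, 78 (4.45%) reversed, 147 (8.39%) dxo1-only and 10 (0.57%) amplified, and 74 (4.22%, or 0.377% of genes tested) passed in neither genotype alone. Without untreated Col-0 replicate 1 these kinds held 671, 45, 85 and 5 genes, and without replicate 2 they held 648, 45, 89 and 6. The reversed genes numbered 145 and the amplified 17 without ABA-treated dxo1 replicate 1, the dxo1-only genes numbered 92 without ABA-treated dxo1 replicate 2, and the blunted genes 951 without ABA-treated Col-0 replicate 1. Without ABA-treated Col-0 replicate 1 or 2 the amplified genes numbered 5 and 6. The ABA changes of both genotypes, which share no library, correlated at r = 0.700 across the 19644 genes and at 0.794 across the 11509 that averaged 10 CPM or more, where genes are not independent replicates. Genes raised in both genotypes numbered 609, which is 22.2% of the Col-0 rises and 60.2% of the dxo1 rises. Genes lowered in both numbered 340, or 13.6% of the Col-0 falls and 68.4% of the dxo1 falls.

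**Figure D1:**
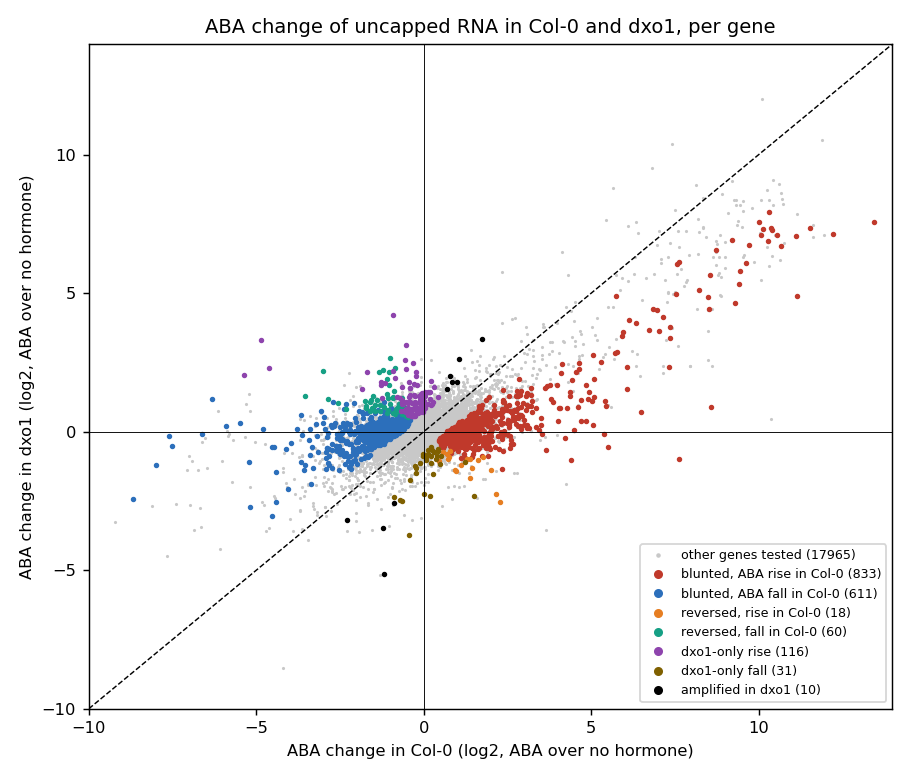
Each point is a gene, with the ABA change in Col-0 on the x axis and in dxo1 on the y axis, both in log2, and the dashed line marks equal change. The 833 blunted rises and 611 blunted falls lie between the dashed line and the horizontal line or beyond it, and the 60 genes that fell in Col-0 and rose in dxo1 lie at the upper left.

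The blunted rises were the largest kind, with 833 genes (4.24% of genes tested), which is 30.3% of all Col-0 rises. ABA still raised 123 of them in dxo1, by a median 46.7% of the Col-0 log2 change. Another 246 had a positive change in dxo1 that did not pass the test, and 464 had a negative one that did not pass. The median ABA change over the 833 genes was 1.19 in Col-0 and -0.06 in dxo1, against -0.01 and -0.03 over all genes tested. The genotypes differed mainly with ABA: 702 of the 833 were lower in dxo1 than in Col-0 with ABA, against 84 lower and 173 higher without hormone, where over all genes tested 15.8% were lower with ABA, 10.4% lower without hormone and 10.1% higher without it. The median ABA changes of each kind, here and below, follow from how the genes were sorted. The genotype contrasts, here and for the other kinds below, use the same libraries as the interaction. Neither adds independent evidence.

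ICL (AT3G21720), isocitrate lyase of the glyoxylate cycle by which seedlings turn stored oil into sugar, had the smallest interaction p of this kind and was chosen after its values were seen. ICL stood at 21.5 and 23.7 CPM in untreated Col-0 and 15270.3 and 15738 with ABA, and at 34.7 and 27.9 CPM in untreated dxo1 and 1328 and 1205 with ABA. All ABA libraries lay above all untreated ones, and the dxo1 ABA libraries lay far below those of Col-0. The ABA change was 9.42 ± 0.24 (SE) in Col-0 and 5.34 ± 0.2 in dxo1, and the interaction was -4.08 ± 0.25 (edgeR adjusted p = 2.08e-08). AT4G36700 had an even larger interaction, -6.23 ± 0.64 (edgeR adjusted p = 4.02e-06). It rose from 0.261 and 0.111 CPM to 511 and 427 in Col-0 and from 1.34 and 0.601 to 33.8 and 25.5 in dxo1.

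Several classical ABA-induced genes, RAB18, RD29B, LEA4-5 and RD29A among them, rose in both genotypes and by less in dxo1. RAB18 (AT5G66400), a dehydrin, rose from 20.9 and 19.2 CPM to 2447 and 2196 in Col-0 and from 14 and 10.2 to 255 and 275 in dxo1. RD29B (AT5G52300) rose from 3.3 and 3.9 CPM to 1467 and 1568 in Col-0 and from 3.34 and 2.61 to 321 and 246 in dxo1. The untreated libraries of RD29B overlapped between genotypes, while RAB18 was lower in untreated dxo1 by -0.73 on the log2 scale (edgeR adjusted p = 0.0108), a call lost without either untreated Col-0 replicate or untreated dxo1 replicate 2. In both genes the ABA libraries of dxo1 lay far below those of Col-0, with interactions of -2.4 ± 0.25 (edgeR adjusted p = 5.91e-06) and -2.15 ± 0.31 (edgeR adjusted p = 0.000217). LEA4-5 (AT5G06760), a late embryogenesis abundant protein, rose from 1.39 and 1 CPM to 373 and 356 in Col-0 and from 0.534 and 0.935 to 19.4 and 32.9 in dxo1. The interaction of LEA4-5 was -3.08 ± 0.56 (edgeR adjusted p = 0.0015), a call lost without untreated dxo1 replicate 2. RD29A (AT5G52310) rose from 187 and 189 CPM to 1252 and 1441 in Col-0 and from 198 and 195 to 813 and 645 in dxo1, and its interaction of -0.95 ± 0.23 (edgeR adjusted p = 0.0125) was lost without either untreated Col-0 replicate or ABA-treated Col-0 replicate 2. COR15A, a chloroplast cold-response protein, rose in both, to 81.6 and 69.3 CPM in Col-0 and 87.9 and 82.3 in dxo1, with an interaction of -0.47 ± 0.25 (edgeR adjusted p = 0.267).

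Over the 21 ABA-induced stress genes, 8 had a more negative ABA change in dxo1 and 3 a more positive one, against 4.67% and 4.26% of all genes tested, and the median interaction was -0.19 against -0.0012. That median ran from -0.49 without ABA-treated Col-0 replicate 2 to -0.07 without untreated dxo1 replicate 2. The 8 were RD29A, RD29B, RAB18, KIN1, KIN2, LEA7, LEA4-5 and AT3G02480, all blunted rises. The 3 were the dehydrin LTI30 (amplified) and the transcription factors RD26 (reversed) and HB12 (blunted fall), so the ABA-induced list did not move one way. ABA raised 14 of the 21 in Col-0 and 15 in dxo1, against 14% and 5.15% of all genes tested. Without untreated Col-0 replicate 1 the 8 became 3, and they became 5 without untreated Col-0 replicate 2, ABA-treated Col-0 replicate 2 or untreated dxo1 replicate 1. The lists of upstream signalling genes are too short to show a share of interaction calls under the 8.92% of all genes tested. Of 9 clade A phosphatases, which switch the pathway off, 0 had an interaction by edgeR or DESeq2 and 4 had an unadjusted p under 0.05. ABA raised 7 of them in Col-0 and 6 in dxo1, against 14% and 5.15% of all genes tested. With ABA 6 of the phosphatases were lower in dxo1 than in Col-0, against 15.8% of all genes tested. Without hormone 4 were already lower, against 10.4%, and the median genotype difference was -0.65 without hormone and -0.92 with ABA. HAI1 (AT5G59220) stood at 6.01 and 6.39 CPM in Col-0 with ABA and 4.42 and 5.19 in dxo1. HAI2 (AT1G07430) stood at 53 and 47 CPM against 12 and 12.4, with an interaction of -1.24 ± 0.47 (edgeR adjusted p = 0.115). HAI3 (AT2G29380) stood at 35.2 and 21.7 CPM against 3.85 and 3.02, from 1 count in untreated Col-0 and 3 in untreated dxo1 (edgeR adjusted p = 0.133). The median interaction of the phosphatases, 0.06, ran from -0.43 without untreated Col-0 replicate 1 to 0.14 without untreated dxo1 replicate 1, and 1 gene was lower without untreated dxo1 replicate 2 or ABA-treated dxo1 replicate 1. Of 12 PYR/PYL receptors tested, 2 had a more negative ABA change in dxo1, against 4.67% of all genes tested, and both are described with the dxo1-only genes.

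Seed storage and oil body genes, which ABA switches on in seeds, rose by large factors in seedlings of both genotypes. Their summed level over 14 genes was 6.69 and 7.13 CPM in untreated Col-0, 5287 and 5042 with ABA, 3.87 and 2.47 in untreated dxo1 and 686 and 616 with ABA. The ABA sums of the genotypes did not overlap. ABA raised all 12 tested genes in Col-0 and 10 in dxo1, against 14% and 5.15% of all genes tested. The median changes were 9.36 and 7.52 (9.15 and 7.37 with genes that have a group at 0 set at their bound), and the median interaction was -1.86. The interaction passed for 3 of 12, all lower, against 4.67% of all genes tested, and for 1 without untreated dxo1 replicate 1 and 5 by DESeq2 or without the filter on low counts. The oleosin OLEO2 (AT5G40420) rose from 0.261 and 0.111 CPM to 676 and 568 in Col-0 and from 0.601 and 0.267 to 78.5 and 68.5 in dxo1 (interaction -4.19 ± 0.72, edgeR adjusted p = 0.000908). M17 (AT2G41260), a late embryogenesis gene, rose to 807 and 762 CPM and 72.5 and 67 in the same order (interaction -2.3 ± 0.47, edgeR adjusted p = 0.00408), a call lost without untreated dxo1 replicate 1. OLEO4 (AT3G27660) stood at 6.71 and 6.58 CPM in ABA-treated Col-0 and at 0.227 and 0.378 in ABA-treated dxo1 (edgeR adjusted p = 0.0162), a call lost without untreated Col-0 replicate 1 or either untreated dxo1 replicate.

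The listed genes of flavonoid and anthocyanin synthesis were blunted more often than they were not. The list holds enzymes and regulators of the pathway to the red and ultraviolet-screening pigments of stressed seedlings. Of 11 tested, 8 had an interaction and all 8 were lower, against 4.67% of all genes, with a median of -1.39. ABA raised 9 of 11 in Col-0 and 5 in dxo1, against 14% and 5.15% of all genes tested, and the median changes were 2.5 and 0.85. The count was 8 under each scaling and 6 to 8 when a library was left out. The 8 were CHS, F3H, TT7, FLS1, DFR, LDOX, UF3GT and UGT75C1.

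DFR (AT5G42800), dihydroflavonol reductase at the entry to anthocyanins, stood at 1.13 and 0.78 CPM in untreated Col-0 and 26.7 and 38.1 with ABA, and at 8.28 and 11.7 in untreated dxo1 and 23.56 and 19.7 with ABA. The untreated dxo1 libraries lay above the untreated Col-0 libraries, while the ABA libraries of dxo1 lay below those of Col-0. The interaction of DFR was -3.92 ± 0.4 (edgeR adjusted p = 3.8e-06), from a change of 5.04 in Col-0 and 1.11 in dxo1. CHS (AT5G13930), chalcone synthase, the first enzyme of the pathway, stood at 32.5 and 29.5 CPM, 205 and 168, 67.7 and 63.5 and 105 and 114 in the same order of groups. CHS thus had the same order, with dxo1 higher without hormone and lower with ABA, and an interaction of -1.85 ± 0.23 (edgeR adjusted p = 3.36e-05). The glucosyltransferases UGT75C1 and UF3GT, which add sugars to anthocyanins, had interactions of -2.5 ± 0.31 (edgeR adjusted p = 3.44e-05) and -3.42 ± 0.48 (edgeR adjusted p = 0.000145). The call of an ABA rise in dxo1 for UGT75C1 was lost without untreated dxo1 replicate 2 or ABA-treated dxo1 replicate 1.

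Other blunted rises were named by the size of their interaction. FTM1 (AT1G43800), a stearoyl-ACP desaturase, stood at 1.39 and 1.78 CPM in untreated Col-0, 28.1 and 30.4 with ABA, 6.48 and 6.21 in untreated dxo1 and 3.85 and 6.8 with ABA. The dxo1 libraries overlapped between conditions, and the interaction was -4.44 ± 0.39 (edgeR adjusted p = 1.2e-06). CYP71A13 (AT2G30770), a cytochrome P450 of camalexin synthesis, had 1 count in untreated Col-0 and 132 with ABA, a ratio of 249.8 (95% exact interval 44.1 to 9941, counting error only). In dxo1 it had 159 counts without hormone and 52 with ABA, a ratio of 0.504 (95% exact interval 0.361 to 0.694, counting error only). This fall did not pass the edgeR test, so the gene was sorted as blunted and not reversed. Its interaction passed (edgeR adjusted p = 4.07e-07). AT3G15670 went from 2 counts to 5680 in Col-0 and from 12 to 1126 in dxo1 (edgeR adjusted p = 0.000412). AT5G55410 went from 0 counts to 1508 in Col-0, at least 951-fold higher with the untreated group set at 3 counts, and from 3 to 414 in dxo1, and its interaction (edgeR adjusted p = 0.0271) was lost without either untreated Col-0 replicate or untreated dxo1 replicate 2. The transcription factor NAC042 went from 3 counts to 74 in Col-0, a ratio of 46.7 (95% exact interval 15.4 to 231.5), and from 45 to 63 in dxo1 (edgeR adjusted p = 0.00173).

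**Figure D2:**
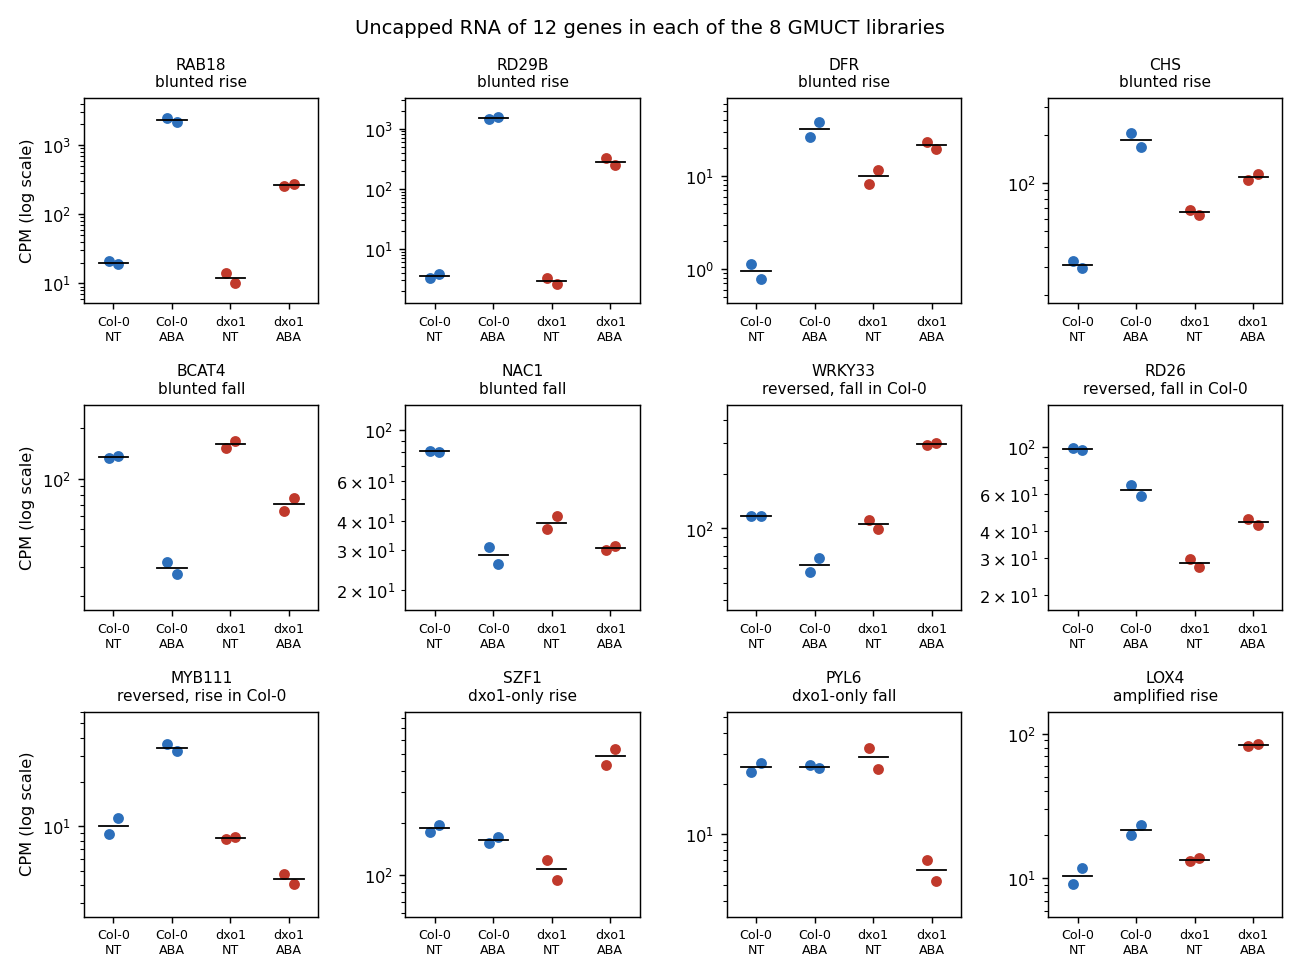
Each panel shows 1 gene, with CPM on a log axis, a point per library and a bar at the group mean. RAB18 and RD29B rise in both genotypes and reach lower ABA levels in dxo1, where RAB18 is also lower without hormone, WRKY33 and RD26 move in opposite directions, and SZF1 and PYL6 move in dxo1 alone by their calls.

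The blunted falls numbered 611 (3.11% of genes tested), or 24.4% of the Col-0 falls. ABA still lowered 54 of them in dxo1, by a median 39.3% of the Col-0 log2 change, while 241 had a negative and 316 a positive change that did not pass. The median ABA change was -1.23 in Col-0 and 0.02 in dxo1. With ABA, 411 of the 611 were higher in dxo1 than in Col-0, against 14.8% of all genes tested. Without hormone 239 were lower and 30 higher, against 10.4% and 10.1% of all genes tested.

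BT5 (AT4G37610), a BTB and TAZ domain protein, had the smallest interaction p of this kind and was chosen, like RAV1 below, after its values were seen. BT5 stood at 158 and 157 CPM in untreated Col-0 and 14.5 and 14.9 with ABA, and at 101 and 102 in untreated dxo1 and 79.7 and 87 with ABA. The Col-0 groups were far apart and the dxo1 groups lay close together without overlapping, for an interaction of 3.14 ± 0.23 (edgeR adjusted p = 9.55e-08). RAV1 (AT1G13260), an AP2/B3 transcription factor, stood at 323 and 319 CPM in untreated Col-0, 43.6 and 39.9 with ABA, 259 and 192 in untreated dxo1 and 268 and 219.8 with ABA. The dxo1 groups overlapped, and the interaction was 3.05 ± 0.25 (edgeR adjusted p = 4.56e-07). The MADS-box gene AGL14 had levels of 6.69 and 7.24 CPM and 0.53 and 0.581 in Col-0 and 2.14 and 1.54 and 1.93 and 1.51 in dxo1 (interaction 3.51 ± 0.64, edgeR adjusted p = 0.00152). ZAT7, a zinc-finger factor, went from 167 counts to 3 in Col-0, a ratio of 0.034 (95% exact interval 0.00694 to 0.101), and from 199 to 137 in dxo1 (edgeR adjusted p = 9.33e-05). AT5G35525 went from 105 counts to 0 in Col-0, at least 18.5-fold lower, and from 195 to 23 in dxo1 (edgeR adjusted p = 0.0188), a call lost without either ABA-treated Col-0 replicate.

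Glucosinolate synthesis, which makes the mustard oil precursors of the cabbage family, held 7 blunted falls among 17 genes, against 3.11% of all genes tested, with a median interaction of 0.55. No gene of the list had a more negative interaction, and 1 had without ABA-treated Col-0 replicate 1. ABA lowered 9 of the 17 in Col-0 and 6 in dxo1, against 12.8% and 2.53% of all genes. The 7 were MAM3, BCAT4, CYP79F1, CYP79F2, CYP83A1, SUR1 and MYB29. BCAT4 (AT3G19710), the aminotransferase that starts methionine chain elongation, stood at 133 and 136 CPM and 32 and 27.3 in Col-0 and at 153 and 167 and 64.2 and 77.2 in dxo1. BCAT4 fell in both genotypes and stayed higher in dxo1 with ABA, with an interaction of 1.0 ± 0.23 (edgeR adjusted p = 0.00864), lost without untreated or ABA-treated Col-0 replicate 2. MYB29, a regulator of the aliphatic pathway, stood at 6.95 and 6.79 CPM and 0.883 and 1.16 in Col-0 and 6.08 and 6.62 and 5.78 and 3.68 in dxo1 (interaction 2.3 ± 0.5, edgeR adjusted p = 0.00599). The count of 7 became 3 without untreated Col-0 replicate 1, 2 without untreated Col-0 replicate 2, 3 without ABA-treated Col-0 replicate 1 and 4 without ABA-treated Col-0 replicate 2.

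Targets of microRNAs are cut by AGO1 and leave uncapped fragments that GMUCT sequences directly. Of 36 targets tested, 3 had a more positive ABA change in dxo1 and none a more negative one, against 4.26% and 4.67% of all genes tested, so the count was near the background. The median interaction was 0.24, or 0.15 without untreated Col-0 replicate 2, and ABA lowered 12 targets in Col-0 and 2 in dxo1, against 12.8% and 2.53% of all genes. NAC1 (AT1G56010) stood at 81.4 and 80.4 CPM and 30.7 and 25.9 in Col-0 and at 36.9 and 41.9 and 29.9 and 31.1 in dxo1. The untreated dxo1 libraries of NAC1 were already well below untreated Col-0, and the interaction was 1.14 ± 0.23 (edgeR adjusted p = 0.00341). TCP2 (AT4G18390) stood at 47.8 and 55.6 CPM and 23.7 and 25 in Col-0 and at 42.8 and 35.6 and 49 and 33 in dxo1, where the groups overlapped (interaction 1.15 ± 0.27, edgeR adjusted p = 0.0106). MYB65 (AT3G11440) had an interaction of 1.27 ± 0.32 (edgeR adjusted p = 0.0163). The TCP2 call was lost without untreated Col-0 replicate 2, and the MYB65 call without either untreated Col-0 replicate or ABA-treated Col-0 replicate 2. Without untreated Col-0 replicate 2, 1 of the 3 calls was left.

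Some genes for microRNAs and small nucleolar RNAs were also blunted falls, a kind that held 3.11% of all genes tested. Of 28 microRNA genes tested, 6 had an interaction, all blunted falls, with a median of 0.91 over the 28, and 14 fell in Col-0 and 3 in dxo1, against 12.8% and 2.53% of all genes. The 6 were MIR159b, MIR171c, MIR319b, MIR398b, MIR779 and MIR822. MIR159b had group means of 30.7 CPM and 9.88 in Col-0 and 25.7 and 23.0 in dxo1 (interaction 1.47, edgeR adjusted p = 0.0011), and MIR319b had 17.5 and 6.52 in Col-0 and 10.4 and 16.3 in dxo1 (interaction 2.1, edgeR adjusted p = 0.0021). MYB65 and TCP2 are known targets of these microRNA families, MYB65 of the first and TCP2 of the second. They were named because they were among the 3 called targets of the 36 tested. Their relatives MYB33, TCP3 and TCP4 on the same list had no call. A link between microRNA genes and targets was not tested. Of 53 small nucleolar RNA genes tested, 14 had an interaction, again all blunted falls, with a median of 0.47 over the 53, and 5 calls were left without untreated Col-0 replicate 2. ABA lowered 17 of the 53 in Col-0 and 0 in dxo1. Their share of gene counts was 0.702% and 0.796% in untreated Col-0, 0.404% and 0.378% with ABA, 0.439% and 0.532% in untreated dxo1 and 0.432% and 0.590% with ABA. The untreated Col-0 libraries were thus the highest, apart from the other 6.

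The reversed genes numbered 78, of which 60 (0.305% of genes tested) fell in Col-0 and rose in dxo1 and 18 (0.0916%) did the opposite. The median change of the 60 was -1.02 in Col-0 and 0.94 in dxo1, and that of the 18 was 1.2 and -1.04. With ABA, 54 of the 60 were higher in dxo1 than in Col-0, against 14.8% of all genes tested. Without hormone 35 were lower and 2 higher, against 10.4% and 10.1% of all genes tested.

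DIC2 (AT4G24570), a mitochondrial dicarboxylate carrier, had the smallest interaction p of this kind, and like STZ it was chosen after its values were seen. DIC2 stood at 166 and 164 CPM in untreated Col-0 and 83.7 and 76.3 with ABA, and at 71.8 and 75.5 in untreated dxo1 and 378 and 285 with ABA. Untreated dxo1 lay near ABA-treated Col-0, and ABA-treated dxo1 lay above all other libraries. The ABA change was -1.04 ± 0.17 in Col-0 and 2.17 ± 0.17 in dxo1 (interaction 3.22 ± 0.23, edgeR adjusted p = 9.55e-08). STZ (AT1G27730), a zinc-finger repressor of stress responses, stood at 17.37 and 25.5 CPM and 11.1 and 8.71 in Col-0 and at 7.95 and 8.55 and 26.7 and 34.5 in dxo1. STZ had the same order of groups apart from a wider spread in untreated Col-0, with an interaction of 2.99 ± 0.31 (edgeR adjusted p = 5.46e-06). Among the genes named by size were AT5G51190 (ERF105, an ethylene response factor) at 11.6 and 12 CPM and 8.66 and 2.9 in Col-0 and 4.88 and 4.48 and 25.5 and 33.7 in dxo1, and the phloem protein gene PP2-B13 (AT1G56240) at 5.21 and 5.01 and 1.24 and 2.9 against 6.21 and 6.08 and 32.2 and 22.8. Their interactions were 3.67 ± 0.41 (edgeR adjusted p = 1.11e-05) and 3.48 ± 0.42 (edgeR adjusted p = 3.36e-05). The place of both among the reversed genes was less firm. The Col-0 fall of AT5G51190 lost its call without either untreated Col-0 replicate or ABA-treated Col-0 replicate 2. It was -1.01 on the log2 scale, and -0.46 without ABA-treated Col-0 replicate 2. The Col-0 fall of PP2-B13 lost its call without untreated or ABA-treated Col-0 replicate 1.

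RD26 (AT4G27410), a NAC transcription factor of the ABA response, went down in Col-0 and up in dxo1. It stood at 99.4 and 96.9 CPM in untreated Col-0, 66.6 and 58.7 with ABA, 29.5 and 27.1 in untreated dxo1 and 45.5 and 42.7 with ABA. All 4 dxo1 libraries lay below all 4 Col-0 libraries, so the reversal brought the genotypes closer (interaction 1.29 ± 0.22, edgeR adjusted p = 0.000865). The rise of RD26 in dxo1 lost its call without untreated dxo1 replicate 2, which leaves a blunted fall.

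Regulators of defence were among the reversed genes. WRKY33 (AT2G38470), which drives camalexin synthesis and resistance to necrotrophic fungi, stood at 117 and 117 CPM in untreated Col-0, 57.4 and 68.3 with ABA, 112 and 99.5 in untreated dxo1 and 292 and 299 with ABA. The untreated genotypes lay close together and the ABA libraries moved apart in opposite directions, with a change of -0.9 ± 0.16 in Col-0 and 1.49 ± 0.15 in dxo1 (interaction 2.38 ± 0.22, edgeR adjusted p = 1.75e-06). CBP60G, an activator of salicylate synthesis, stood at 5.3 and 5.35 CPM and 1.59 and 1.94 in Col-0 and at 6.48 and 7.28 and 11.6 and 11.8 in dxo1 (interaction 2.35 ± 0.39, edgeR adjusted p = 0.000737). WRKY53 stood at 5.04 and 5.12 CPM and 2.83 and 2.52 in Col-0 and at 5.48 and 4.21 and 13.1 and 10.4 in dxo1 (interaction 2.19 ± 0.4, edgeR adjusted p = 0.00152). The interaction of both held without any single library, but their place among the reversed genes was less firm. The Col-0 fall of WRKY53 lost its call without any 1 of the 4 Col-0 libraries and by DESeq2, and the dxo1 rise of CBP60G without either untreated Col-0 replicate, without any 1 of the 4 dxo1 libraries and by DESeq2.

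Over the 23 salicylate and defence genes tested, the interaction was higher for 5 (PR5, EDS1, WRKY33, WRKY53 and CBP60G) and lower for 4 (EDS5, WRKY18, PAD3 and CYP71A13), against 4.26% and 4.67% of all genes tested. The median was 0.32 (0.19 with genes that have a group at 0 set at their bound), and it ran from 0.14 without ABA-treated dxo1 replicate 2 to 0.68 without replicate 1. Without ABA-treated Col-0 replicate 1 the counts were 3 and 1. PR5 (AT1G75040), an antifungal thaumatin-like protein, went from 65 counts to 0 in Col-0, at least 11.4-fold lower, and from 170 to 49 in dxo1 (interaction, edgeR adjusted p = 0.00829), a call lost without ABA-treated Col-0 replicate 1. PR1, the usual marker of salicylate signalling, went from 25 counts to 0 in Col-0, at least 4.40-fold lower, and from 1123 to 67 in dxo1, and its interaction did not pass (edgeR adjusted p = 0.444). Both PR genes were thus highest in untreated dxo1.

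The 18 genes that rose in Col-0 and fell in dxo1 included MYB111 (AT5G49330), an activator of flavonol synthesis. MYB111 stood at 8.86 and 11.4 CPM in untreated Col-0, 36 and 32.3 with ABA, 8.22 and 8.42 in untreated dxo1 and 4.76 and 4.06 with ABA. The ABA-treated Col-0 libraries lay above all others and the ABA-treated dxo1 libraries below all others, with an interaction of -2.69 ± 0.3 (edgeR adjusted p = 1.11e-05). The fall of MYB111 in dxo1 lost its call without untreated or ABA-treated dxo1 replicate 2. AT3G28580 stood at 3.82 and 3.79 CPM and 16.3 and 14.7 in Col-0 and at 25.2 and 26.8 and 12.1 and 8.12 in dxo1, where the untreated libraries were the highest of the 8 (interaction -3.39 ± 0.32, edgeR adjusted p = 1.79e-06). AT5G03350 had the same shape at 4.34 and 2.56 CPM, 10.2 and 8.32, 24 and 31.9 and 8.16 and 9.16 (interaction -3.08 ± 0.36, edgeR adjusted p = 2.16e-05).

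In the iron list, 2 of 14 genes had an interaction, both higher, against 4.26% of all genes tested, and none at a mean of at least 10 CPM. BHLH100 (AT2G41240), a transcription factor induced by iron deficiency, went from 17 counts to 1 in Col-0, a ratio of 0.111 (95% exact interval 0.00266 to 0.711), and from 73 to 215 in dxo1. Its interaction passed (edgeR adjusted p = 0.00181), and its Col-0 call was lost without untreated Col-0 replicate 2, either ABA-treated Col-0 replicate, and by DESeq2. IRT1 (AT4G19690), the iron transporter of roots, went from 95 counts to 1 in Col-0, a ratio of 0.0199 (95% exact interval 0.000499 to 0.114), and from 39 to 31 in dxo1 (edgeR adjusted p = 0.00084). The summed level of 11 root markers was 90.2 and 96.5 CPM in untreated Col-0, 122.6 and 126.2 with ABA, 80.6 and 74.7 in untreated dxo1 and 86.9 and 78.9 with ABA. The root sum was thus higher in Col-0 with ABA and did not follow IRT1, and 0 of 10 root markers tested had an interaction by edgeR or DESeq2, with 5 at an unadjusted p under 0.05. Their median interaction was -0.52, or -0.12 without ABA-treated dxo1 replicate 2, and 1 was lower without ABA-treated dxo1 replicate 1.

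The dxo1-only genes numbered 147, with 116 rises (0.591% of genes tested) and 31 falls (0.158%). The median change of the rises was -0.3 in Col-0 and 1.03 in dxo1, and that of the falls was 0.14 and -1.1. Of the 147, 111 had a Col-0 change within 0.5 on the log2 scale. With ABA, 80 of the 116 were higher in dxo1 than in Col-0, against 14.8% of all genes tested. Without hormone 47 were lower, against 10.4% of all genes tested.

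SZF1 (AT3G55980), a CCCH zinc-finger protein, stood at 178 and 194 CPM in untreated Col-0, 152 and 165 with ABA, 121 and 93.8 in untreated dxo1 and 432 and 535 with ABA. The ABA-treated dxo1 libraries lay above all others, and the untreated dxo1 libraries below all others (interaction 2.4 ± 0.24, edgeR adjusted p = 3.42e-06). AT5G52050 (DTX50, a detoxification efflux carrier by its RefSeq synonym) stood at 63.1 and 71.4 CPM and 38.7 and 55.6 in Col-0 and at 28.2 and 23.4 and 138 and 109.5 in dxo1 (interaction 2.77 ± 0.27, edgeR adjusted p = 2.13e-06). Its Col-0 change of -0.52 ± 0.19 missed the threshold by the smallest margin of this kind (edgeR adjusted p = 0.0501), so it lies at the border with the reversed genes. WRKY40, a repressor of ABA and defence genes, stood at 3.3 and 3.79 CPM and 4.06 and 1.55 in Col-0 and 2.94 and 3.21 and 16.1 and 18.7 in dxo1 (interaction 2.8 ± 0.45, edgeR adjusted p = 0.000483). AT1G07135 stood at 87.4 and 109 CPM and 77.4 and 89.8 against 62.6 and 50.4 and 242 and 209 (interaction 2.23 ± 0.24, edgeR adjusted p = 8.59e-06). In each of these the ABA-treated dxo1 libraries were the highest of the 8. PP2-B14, the neighbour of PP2-B13, had an interaction of 3.13 ± 0.41 (edgeR adjusted p = 7.96e-05), and the calmodulin-like CML37 one of 2.24 ± 0.47 (edgeR adjusted p = 0.00477), lost without untreated Col-0 replicate 1.

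ABA lowered 2 of its own receptors in dxo1 alone by their calls. PYL6 (AT2G40330) stood at 23.63 and 26.7 CPM in untreated Col-0, 26 and 24.8 with ABA, 32.9 and 24.6 in untreated dxo1 and 7.02 and 5.29 with ABA. The first 6 libraries overlapped and the ABA-treated dxo1 libraries lay below them all, with a change of 0.01 ± 0.19 in Col-0 and -2.23 ± 0.21 in dxo1 (interaction -2.24 ± 0.28, edgeR adjusted p = 4.66e-05). PYR1 (AT4G17870) stood at 105 and 111 CPM and 99.8 and 113 in Col-0 and at 147 and 154 and 82.1 and 90.8 in dxo1. The interaction of PYR1 was -0.77 ± 0.21 (edgeR adjusted p = 0.0276), a call lost with library size alone and without any 1 of the 4 Col-0 libraries or untreated dxo1 replicate 2. Over the 12 receptors tested the median interaction was -0.38, or -0.06 without untreated dxo1 replicate 1.

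AT2G43140 had the smallest interaction p of the dxo1-only falls. It stood at 40.8 and 41.5 CPM and 30.9 and 30.2 in Col-0 and at 103 and 94.9 and 7.82 and 7.08 in dxo1, where the untreated libraries were the highest and the ABA libraries the lowest of the 8 (interaction -3.3 ± 0.24, edgeR adjusted p = 9.55e-08). WAK1 (AT1G21250), a wall-associated kinase, stood at 8.69 and 8.02 CPM and 5.65 and 5.03 in Col-0 and at 48.2 and 38.3 and 8.61 and 6.89 in dxo1. Only the untreated dxo1 libraries of WAK1 stood apart among the 8, far above the rest (interaction -1.84 ± 0.33, edgeR adjusted p = 0.00129).

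Of 18 jasmonate genes tested, 3 had a lower and 3 a higher interaction, against 4.67% and 4.26% of all genes. The 3 lower ones, AOC1, AOC2 and AOC3, encode allene oxide cyclase, which shapes the ring of jasmonate precursors, and the higher ones were LOX4, VSP1 and MYC2. The median over the 18 was -0.44, or -0.19 without ABA-treated Col-0 replicate 2. AOC2 (AT3G25770) stood at 34.6 and 37.1 CPM and 103 and 90.2 in Col-0 and at 49.1 and 44.7 and 34.7 and 50.6 in dxo1, where the groups overlapped (interaction -1.56 ± 0.25, edgeR adjusted p = 0.000524). AOC1, a dxo1-only fall, had an interaction of -1.8 ± 0.37 (edgeR adjusted p = 0.00443). The higher count was 1 without any 1 of the 4 Col-0 libraries or untreated dxo1 replicate 2. The AOC genes resemble each other closely in sequence, as do CYP79F1 and CYP79F2, KIN1 and KIN2, PP2-B13 and PP2-B14, and the RBCS and LHCB1 genes, so reads may be split among copies and these values are uncertain.

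The amplified genes numbered 10, with 6 rises (0.0305% of genes tested) and 4 falls (0.0204%). LOX4 (AT1G72520), a lipoxygenase at the start of jasmonate synthesis, stood at 9.12 and 11.8 CPM in untreated Col-0, 19.8 and 23.4 with ABA, 13.1 and 13.8 in untreated dxo1 and 82.1 and 84.6 with ABA. LOX4 rose in both genotypes, by 1.05 in Col-0 and 2.63 in dxo1 (interaction 1.58 ± 0.25, edgeR adjusted p = 0.000523). AT2G05510 stood at 319 and 356 CPM and 1280.3 and 991 in Col-0 and at 55.2 and 35.1 and 439 and 489 in dxo1. Its untreated dxo1 libraries were far below the rest, so the larger rise ended at a lower level than in Col-0 (interaction 1.61 ± 0.28, edgeR adjusted p = 0.000891). LTI30 (AT3G50970) stood at 107 and 97.6 CPM and 188 and 182 in Col-0 and at 43.8 and 35.5 and 143 and 132 in dxo1 (interaction 0.94 ± 0.22, edgeR adjusted p = 0.0104), a call lost without untreated Col-0 replicate 1 or untreated dxo1 replicate 2. AACT1 (AT5G61160), an anthocyanin acyltransferase, fell from 12.5 and 13.9 CPM to 4.77 and 6.97 in Col-0 and from 10.7 and 11.6 to 0.227 and 0.378 in dxo1 (interaction -3.94 ± 0.51, edgeR adjusted p = 5.8e-05).

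Several lists gave few calls or none, where 8.92% of all genes tested had an interaction. Lists this short cannot show a share below that, and the light-harvesting and heat-shock lists were not below it by edgeR. By edgeR, 0 of 23 nuclear photosystem subunits had an interaction (4 at an unadjusted p under 0.05), 0 of 17 mRNA decay genes (3), 0 of 7 dark and sugar starvation genes (1) and 0 of 9 reference genes (1). DESeq2 called 1 photosystem gene higher and 1 decay gene lower, and neither of the other lists had a call there. The medians were 0.04, 0.07, -0.12 and -0.30, and with a library left out they ran from -0.15 to 0.21, from -0.03 to 0.17, from -0.22 to 0.02 and from -0.47 to -0.04. Among 21 light-harvesting and RBCS genes, LHCB1.2 and LHCA2 were lower and RBCS1B higher, with a median of -0.10 that turned to 0.01 with library size alone and ran from -0.22 to 0.06 with a library left out, and all 3 calls were lost without any 1 of the Col-0 libraries. In the heat-shock list, HSP90-1 was lower among 10, a call lost with library size alone and without most single libraries. With library size alone, 1 photosystem gene and 1 decay gene were higher. Without the filter on low counts, at a mean of at least 10 CPM and with the replicate block, 1 decay gene was higher and 1 lower. With organelle genes removed or nuclear protein-coding genes alone, 1 decay gene was higher. Without the filter on low counts, 1 photosystem gene was also higher and 1 lower. Leaving out a library gave calls in the photosystem, decay and reference lists too.

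**Figure D3:**
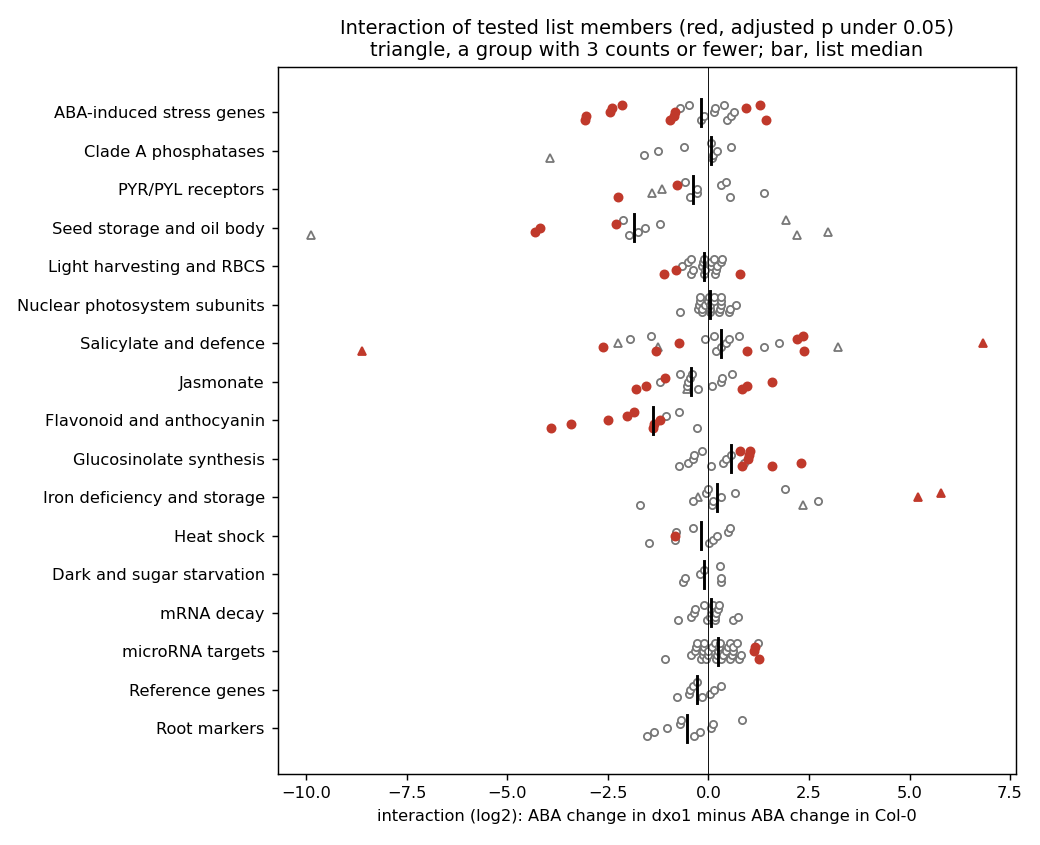
Each point is a tested gene of a list and the x axis is its interaction in log2, with red for an adjusted p under 0.05, triangles for genes with a group of 3 counts or fewer (whose fitted value depends on the prior count) and a bar at the list median. Flavonoid genes lie on the negative side, glucosinolate calls on the positive side, and ABA-induced, salicylate and jasmonate calls on both.

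Total RNA of the same groups, sequenced in 8 other libraries, offered a readout that the sorting did not use, at a lower depth of 878113 to 2027552 counts per library. Only 155073 to 287554 counts per library lay on protein-coding genes, which made up 1707 of the 1753 interaction genes. Of 4965 genes tested there, 0 had an interaction at an edgeR adjusted p under 0.05 (0%) and 293 at an unadjusted p under 0.05. Of the 833 blunted rises, 247 were tested in total RNA, and 130 of these (52.6%) had an interaction of the same sign, with a median of -0.11. Of the blunted falls, 195 were tested and 118 (60.5%) had the same sign, with a median of 0.21, and of the dxo1-only rises 25 were tested and 14 (56%) had the same sign, with a median of 0.49. Over the 4421 genes without an interaction call in GMUCT, 49.5% had the same sign and the median was 0.05. Total RNA held a median of 14.6 counts per gene and library, which limits what could be detected there. ABA raised 13 of the blunted rises in Col-0 total RNA, where 18 genes rose (0.363%) and 4 fell (0.0806%) of 22 changed in all (0.443%). ABA raised 9 of them in dxo1, where 27 rose (0.544%) and 9 fell (0.181%) of 36 changed (0.725%). Between genotypes, total RNA of 3 genes (0.0604%) differed without hormone and of 2 genes (0.0403%) with ABA, all lower in dxo1.

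ICL had enough counts in total RNA with ABA to be followed there. It had 2 and 2 counts in untreated Col-0, 427 and 306 with ABA, 4 and 5 in untreated dxo1 and 75 and 91 with ABA. The ABA libraries of dxo1 lay below those of Col-0, as in GMUCT, by -2.54 on the log2 scale (edgeR adjusted p = 0.0277), and the interaction of -3.15 did not pass (edgeR adjusted p = 0.697).

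**Figure D4:**
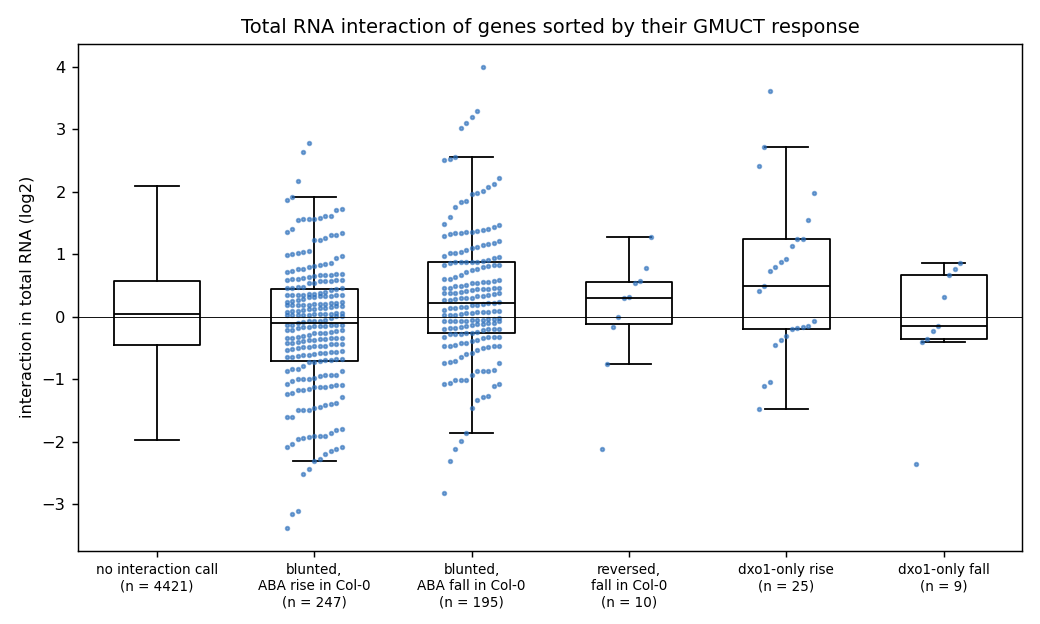
The y axis is the interaction in total RNA (log2) and each box holds the genes of 1 kind of GMUCT response with at least 9 genes tested there, with the median, the quartiles and whiskers, and a point per gene except for genes without an interaction call. The medians of the kinds drawn run from -0.15 for 9 dxo1-only falls to 0.49 for 25 dxo1-only rises, reversed rises and amplified genes had 1 or 2 tested genes each and are not drawn, and all boxes overlap that of genes without an interaction call.

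The promoters of the kinds were searched for the motifs marked in the sequences above, on both strands of the 250 bases before the gene start. ACGTG was in 24.2% of the 19180 protein-coding promoters tested, in 27.0% of 819 blunted rises and in 31.7% of 1869 genes that rose in Col-0 without an interaction call. TTGAC was in 45.1% of all promoters, in 44.2% of blunted rises, in 61.7% of the 60 genes that fell in Col-0 and rose in dxo1 (37 promoters) and in 64.7% of the 116 dxo1-only rises (75 promoters). The ICL promoter held 1 ACGTG and 1 TTGAC, that of BT5 2 ACGTG and no TTGAC, that of DIC2 1 ACGTG and 2 TTGAC, and that of AT5G52050 3 TTGAC and no ACGTG. The G box CACGTG, which contains ACGTG, was in 7.71% of all promoters and 10.5% of blunted rises, and AATATCT (the core of the evening element) was in 10.3% of all and 15.9% of blunted falls. These shares are descriptions of letters and were not tested.

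**Figure D5:**
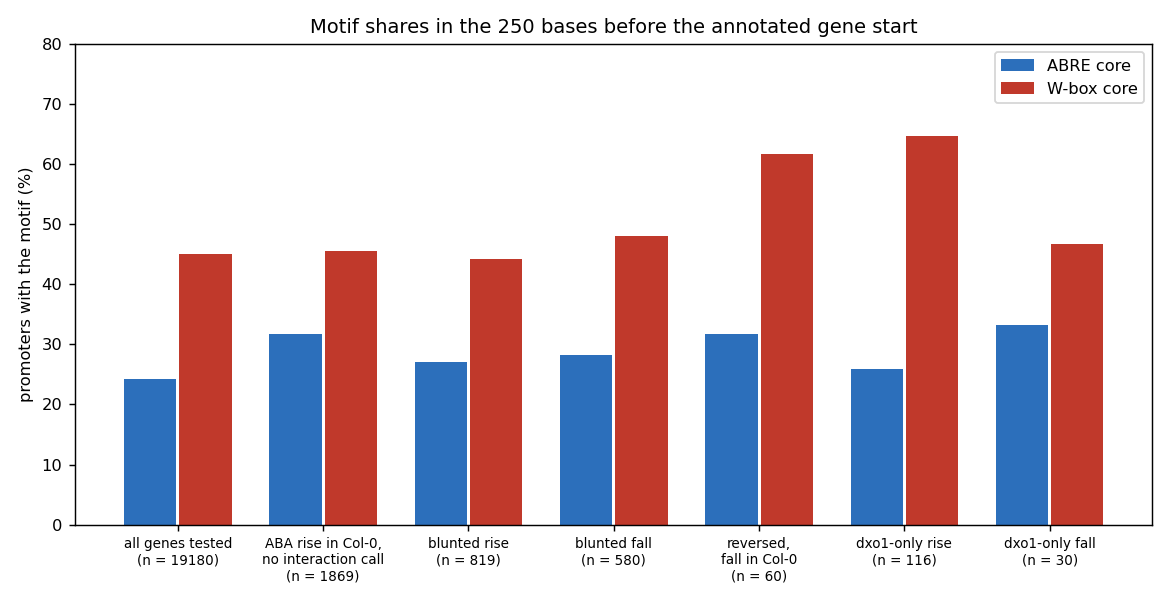
The y axis is the percentage of promoters with ACGTG (ABRE core, blue) or TTGAC (W-box core, red) on either strand, for each kind of gene, with the number of promoters under each pair of bars. The W-box core reaches 61.7% and 64.7% in the reversed falls and dxo1-only rises, against 45.1% in all genes tested.

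The sorting has soft edges. CRK28 passed the interaction threshold by the smallest margin (edgeR adjusted p = 0.049997), and UPB1 missed it by the smallest (edgeR adjusted p = 0.050019). AT1G25400 was sorted as a blunted fall with a dxo1 change of 0.48 that missed its call (edgeR adjusted p = 0.0519), and the weakest reversed gene, AT5G66675, passed with changes of -0.62 (edgeR adjusted p = 0.0277) in Col-0 and 0.63 (edgeR adjusted p = 0.0459) in dxo1.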

How the data were processed

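Per the labels' protocols, libraries of 50 nt single-end, strand-specific reads were sequenced on a HiSeq2000, and per the submitters' processing notes cutadapt, STAR 2.4.2a and HTSeq were used with TAIR10. The deposited files hold raw, unnormalized counts of reads for each gene. HTSeq's summary rows (27.3% to 40.2% of a library's total; reads at more than 1 place made 34.4% to 37.0% of the total without hormone and 23.9% to 34.0% with ABA) were left out. Groups came from the labels, and the NAD-captured libraries were not used. Names came from the TAIR10.1 RefSeq table, which matched 28009 of 28775 identifiers (97.3%).

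Genes passing filterByExpr (minimum count 10) were fitted once over the 4 GMUCT groups with edgeR 4.0.16 in R 4.3.3 (TMM scaling, quasi-likelihood test, Benjamini-Hochberg adjustment over all genes tested, threshold 0.05), and total RNA was fitted separately in the same way. The test was tried on simulated data first. SE is the absolute log2 change over the square root of F. CPM uses TMM-scaled library sizes and is not corrected for gene length. It is compared between libraries, and between genes only where the floral sum is set against the light-harvesting and RBCS sum. A gene with a group at 0 is given as a bound from a floor of 3 counts over the group, and ratios of 1 to 3 counts with exact 95% intervals, which cover counting error only. Library depth limits the precision of low genes. Alternatives were DESeq2 1.42.0 (test and size factors), library size alone, other filters, gene subsets, a replicate block and leaving out each library; limma 3.58.1 was loaded with edgeR.

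Named genes were interaction genes with a highest group mean of at least 5 CPM, ranked by the size of the interaction (10 blunted rises, 8 blunted falls, 6 reversed and 8 dxo1-only each way, 4 amplified each way), up to 4 members per list by smallest p, and fixed markers; other list members are named to spell out a count. The members and lists were chosen with earlier results of these data known.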

Additional observations from a re-analysis of the deposited data

Results flagged for a closer look

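The ABA change differed between Col-0 and dxo1 for 1753 genes by the test of the difference itself. Among them, 78 genes were reversed and 147 were dxo1-only by their separate calls. No explanation for these differences was tested.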

How the results depend on the processing

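When each library was left out in turn, genes with an interaction numbered 813 to 1837, genes with an ABA response in Col-0 2963 to 5768, genes with an ABA response in dxo1 1021 to 1644, blunted genes 648 to 1400, reversed genes 45 to 145, dxo1-only genes 85 to 171 and amplified genes 5 to 17. The lone library then left in a group was assumed to vary like the other groups. Without the filter on low counts, 123 genes were reversed; with a mean of at least 10 CPM, the genes with an ABA response in dxo1 numbered 919; with library size alone, 17 genes were amplified. DESeq2's test gave 1538 genes with an interaction, of which 1465 were shared. Of 83 named genes with an interaction, 57 kept the call under every setting that gave them a value and none turned direction. Genes removed by a setting, such as low genes at a mean of at least 10 CPM, had no value there. Values of named genes without a call turned in 2 cases, HAI1 (AT5G59220) interaction log2, which ran from -0.43 without untreated Col-0 replicate 1 to 0.53 without untreated dxo1 replicate 2, and LHCB2.3 (AT3G27690) interaction log2, which ran from -0.074 without ABA-treated Col-0 replicate 2 to 0.30 without ABA-treated Col-0 replicate 1; the cause was not tested. With the replicate number as a block, 1918 genes had an interaction, with 1581 blunted, 91 reversed, 149 dxo1-only and 12 amplified. The differences between replicates correlated at 0.20 between untreated and ABA-treated dxo1, and at -0.05 to 0.04 in the other pairs of groups. The labels give a replicate number alone, and whether it marks a shared batch or pairing was not tested.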
